A study of Mus musculus with 16 samples.

Results

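The transcriptional targets of p53 followed here in mouse high-grade gliomas and normal brain were Cdkn1a, Fas, Bbc3, Trp53inp1, Mdm2, Zmat3 and Ccng1. These 7 genes were taken by name from the known targets of p53, out of 18524 genes that the platform annotation names. The choice was made with earlier results of these data known. The array carried 18 probes for them, of 45281 probes in all. Of the 18 probes, 15 were detected on at least 3 arrays and were tested, so that every one of the 7 genes had at least 1 tested probe. Against the mean of dorsal and ventral normal brain, Cdkn1a, Fas, Trp53inp1 and Mdm2 were higher in tumours on every probe tested. Bbc3 was higher on 1 of its 3 probes, Zmat3 was lower in every tumour, and Ccng1 was lower on 1 of its 3 probes. Against ventral normal brain alone, Fas and Ccng1 passed on no probe, and 1 probe each of Trp53inp1 and Mdm2 did not pass.

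The protein p53 is a transcription factor that is stabilised after DNA damage, oncogene activity and other stress. Its targets include inhibitors of the cell cycle, receptors and mitochondrial proteins that bring about apoptosis, and feedback proteins that return p53 to a low level. The last group includes Mdm2, the ubiquitin ligase that marks p53 for degradation. Loss of p53 function is common in high-grade glioma, and several of these targets can also be driven by other transcription factors.

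The tumours came from a mouse model in which an inducible Cre recombinase deletes tumour suppressors, and were taken once the mice had neurological symptoms. Total RNA of 8 tumours, 5 dorsal and 3 ventral samples of normal brain from control mice was measured on 16 Illumina bead arrays, 1 for each sample, which lay on 3 chips. The design text counts 10 tumours, and 8 are analysed here under the numbers of their labels (2, 3 and 5 to 10). The sources used here give neither the deleted genes, the alleles of tumour and control mice, the tamoxifen schedule, their age or sex, nor the brain region of a tumour, and Trp53 itself is not analysed here.

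Each value is a log2 signal after background correction and quantile normalization, and each difference is a difference of log2 signals with its standard error from limma. A probe passed at a Benjamini-Hochberg adjusted p under 0.05 over the 23131 probes tested. Between 38.8% and 45.1% of probes were detected on an array, and the number of arrays limits the precision. Dorsal controls 4 and 5 stood apart from the other 3. The mean level of 9 genes of striatal projection neurons, a list chosen after seeing the data, was 10.90 and 11.55 in them. It was between 7.15 and 7.26 in dorsal controls 1 to 3, between 8.11 and 8.18 in the ventral controls and between 5.63 and 6.87 in the tumours. Calls of the p53 targets that change without these 2 arrays are given both ways.

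The promoters of 3 of the genes hold a sequence close to the p53 response element, which consists of a pair of like sites side by side, each with the core letters C and G (CNNG). The RefSeq promoter table (GRCm38.p6) gave windows from 250 bases before to 50 bases after a start of transcription for 5 of the 7 genes, 8 windows in all, since Cdkn1a and Bbc3 have several starts. Each window was searched for the element of 20 letters, with no spacer between its paired sites of 10 letters, with both C and both G required and up to 3 mismatches elsewhere. The element reads the same on both strands, so a match counts for both. The 3 windows that held a match are shown, with the match in capitals. The mismatch limit was chosen after seeing the data.
Cdkn1a promoter, chr17:29090729-29091028, plus strand: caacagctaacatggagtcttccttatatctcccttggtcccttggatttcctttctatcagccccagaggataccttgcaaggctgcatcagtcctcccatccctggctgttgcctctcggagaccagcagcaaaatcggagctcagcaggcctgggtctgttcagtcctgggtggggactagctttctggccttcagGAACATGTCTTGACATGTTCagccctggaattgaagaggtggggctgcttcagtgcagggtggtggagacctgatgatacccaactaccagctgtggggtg
Bbc3 promoter, chr7:16309333-16309632, plus strand: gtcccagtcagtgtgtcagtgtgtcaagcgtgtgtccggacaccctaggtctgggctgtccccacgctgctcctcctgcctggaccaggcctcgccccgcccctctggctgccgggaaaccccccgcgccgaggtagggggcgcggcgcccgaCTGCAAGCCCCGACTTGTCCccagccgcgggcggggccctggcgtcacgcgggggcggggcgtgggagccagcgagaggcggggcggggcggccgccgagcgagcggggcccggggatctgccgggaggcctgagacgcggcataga
Ccng1 promoter, chr11:40755237-40755536, minus strand: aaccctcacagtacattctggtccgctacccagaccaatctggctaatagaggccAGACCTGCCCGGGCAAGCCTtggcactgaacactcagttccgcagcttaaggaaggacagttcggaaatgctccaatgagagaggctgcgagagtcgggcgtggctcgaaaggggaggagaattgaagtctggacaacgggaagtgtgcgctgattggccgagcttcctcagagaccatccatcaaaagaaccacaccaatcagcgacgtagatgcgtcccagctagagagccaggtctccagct
The matches themselves, with the required core letters in capitals, show how close each is to the element.
Cdkn1a site, chr17:29090928-29090947: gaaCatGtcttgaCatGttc
Bbc3 site, chr7:16309486-16309505: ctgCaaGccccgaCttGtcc
Ccng1 site, chr11:40755462-40755481: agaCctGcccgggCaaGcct
The Cdkn1a window with a match is set on the upstream start, chr17:29090979, and the gene's other window begins downstream, at chr17:29093519. The match in the Cdkn1a promoter began 51 bases before that upstream start and had 1 mismatch. That of Ccng1 began 195 bases before the start and also had 1 mismatch, and that of Bbc3 began 97 bases before the start its window is set on, which lies inside the gene's annotated span and is 1 of 3 in the table, and had 3 mismatches. Among all 32851 windows of the table, 1.38% held a match with up to 3 mismatches and 0.067% held one with at most 1. The windows of Fas and Mdm2, and the other windows of Cdkn1a and Bbc3, held no match with these settings, which says only that these letters are not in those windows. A match is a description of the sequence and no measure of binding.

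Against the mean of both control regions, 11 of the 15 tested probes of the p53 targets passed, 9 higher and 2 lower in tumours. Over all probes tested, 50.7% passed (25.8% higher and 25.0% lower). Counted by gene, with the probe of the highest mean standing for each gene, 5 of 7 were higher and 2 lower, where 53.8% of all 11755 genes passed. The count of the p53 targets is read against this background, in which about as many genes passed as did not. The median difference of the 7 genes was 1.15, against 0.01 over all genes. Since the 7 were chosen with earlier results of these data known, neither the count nor this median tests p53 targets as a class. The plot of levels by array shows the 7 genes on their brightest probes.

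**Figure D1:**
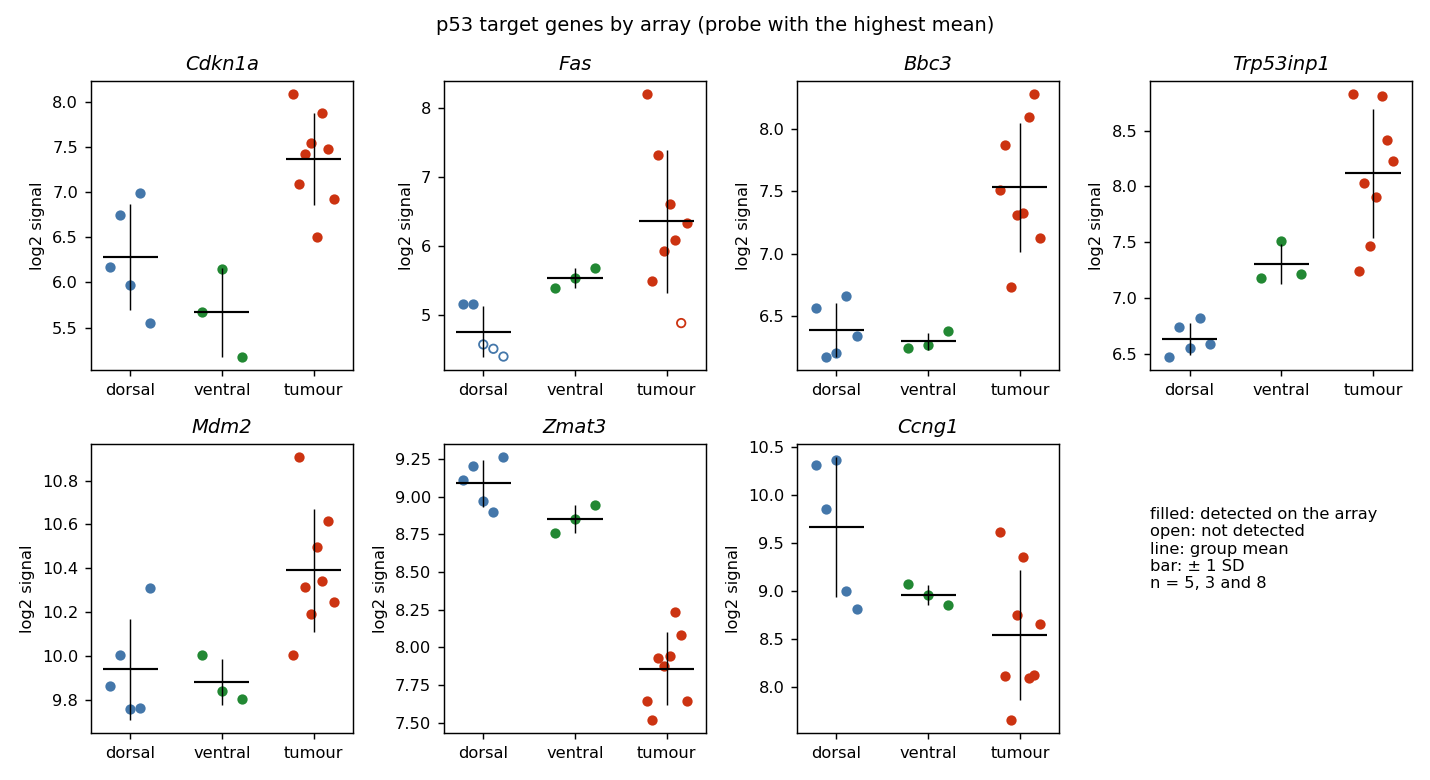
Log2 signal (vertical axes, scaled to each gene) of the brightest probe of each of the 7 p53 targets on each array, by group (5 dorsal controls, 3 ventral controls, 8 tumours), with the group mean as a line, 1 SD as a bar and open points where the probe was not detected. All 8 tumours lay above every control for Bbc3 and below every control for Zmat3, while the groups overlapped for the other 5 genes.

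Among the targets that stop the cell cycle, Cdkn1a, the inhibitor of cyclin-dependent kinases often called p21, rose in the tumours. Its brighter probe (ILMN_2846775) read 6.17, 6.75, 5.97, 6.99 and 5.55 in dorsal controls 1 to 5 and 5.68, 6.15 and 5.17 in ventral controls 1 to 3. The tumours read from 6.50 to 8.08, with a median of 7.45. In all, 6 tumours were above every control, and tumours 7 and 10 fell within the control range. The difference was 1.39 ± 0.25 (2.62-fold, adjusted p = 0.00026, limma). The second probe (ILMN_2846776) rose by 1.60 ± 0.27 (adjusted p = 0.000121), with 7 of 8 tumours above every control, and followed the first over the 16 arrays (Pearson r = 0.967). Within chip 1 and chip 3 the brighter probe was higher in tumours by 1.51 and 1.55, and within chip 2, which held no ventral control, by 1.02 against its dorsal controls.

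Ccng1, which encodes cyclin G1, a partner of the phosphatase PP2A that acts on Mdm2, went the other way on its brightest probe. That probe (ILMN_2500276) read 10.32, 9.85, 10.37, 8.99 and 8.81 in dorsal controls 1 to 5 and 9.07, 8.95 and 8.85 in the ventral controls. The tumours read from 7.65 to 9.61, with a median of 8.38. In all, 6 tumours were below every control, while tumours 2 and 7 lay inside the range of the dorsal controls, which itself spanned 1.55. The difference was -0.77 ± 0.30 (1.71-fold lower, adjusted p = 0.0426). This call was lost in 16 of 28 alternative settings, with adjusted p from 0.00753 to 0.17 over them and a lower level in tumours in each. Among those 16 were median scaling (adjusted p = 0.161) and the chip as a block (0.0545). The call was also lost without any one of dorsal controls 1, 2 and 3, any ventral control, or any one of tumours 3, 5, 8, 9 and 10, with adjusted p from 0.0126 to 0.0827 over all single arrays left out. Without dorsal controls 4 and 5, the 2 lowest of the dorsal group, the difference was -1.03 ± 0.28 (adjusted p = 0.00753). Within chips it was -1.41 on chip 1, -0.28 on chip 3 and -0.88 against the dorsal controls on chip 2.

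The other 2 probes of Ccng1 did not pass. Probe ILMN_2710229 differed by -0.01 ± 0.37 (adjusted p = 0.984) and probe ILMN_2702233 by -0.06 ± 0.35 (adjusted p = 0.908). They followed each other closely over the 16 arrays (r = 0.953) and the brightest probe less so (r = 0.73 and 0.726). All 3 probes were high in dorsal controls 1 to 3 and low in dorsal controls 4 and 5. Against the dorsal controls without 4 and 5, the 2 dimmer probes were lower in tumours by -1.07 (adjusted p = 0.0354) and -1.11 (adjusted p = 0.0157). With all 5 dorsal controls the differences were -0.32 and -0.37 (adjusted p = 0.554 and 0.456). Against the ventral controls they were 0.30 and 0.26 (adjusted p = 0.678 and 0.701). Within chips their sign varied: -0.96 and -0.74 on chip 1, 0.56 and 0.13 on chip 3, and 0.18 and 0.20 against the dorsal controls on chip 2. With all 8 controls taken as 1 group, the brightest probe differed by -0.86 and the dimmer ones by -0.09 and -0.14. The fall of the brightest probe was larger than theirs by -0.77 and -0.73 (exact permutation test over 12870 groupings that mix both control regions, two-sided, adjusted p = 0.00671 for both). That test was chosen after seeing the probes and was run on 8 pairs of probes.

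Among the targets that act in apoptosis, Bbc3 encodes PUMA, a protein of the BCL-2 family that triggers the mitochondrial route. Its brightest probe (ILMN_2920736) read 6.56, 6.17, 6.21, 6.66 and 6.34 in the dorsal controls and 6.24, 6.27 and 6.38 in the ventral controls. The tumours read from 6.73 to 8.28, with a median of 7.42. All 8 tumours were above all 8 controls, a separation that 9.74% of all probes showed in this direction. Tumour 5, the lowest, was only just above dorsal control 4. The difference was 1.19 ± 0.20 (2.28-fold, adjusted p = 1e-04), and within chips it was 1.43 on chip 1, 0.79 on chip 3 and 1.34 against the dorsal controls on chip 2.

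The rise of Bbc3 was carried by that probe alone. Probe ILMN_2690620 was detected on every array and differed by -0.23 ± 0.13 (adjusted p = 0.161), with 4 tumours below every control and tumour 6 above every control. Without tumour 6 that difference was -0.31 (adjusted p = 0.0442). Probe ILMN_2690621 was detected on 9 of 16 arrays and differed by -0.05 ± 0.14 (adjusted p = 0.777). With all 8 controls taken as 1 group, the difference of the brightest probe exceeded those of the others by 1.42 and 1.23. Both had p = 0.000155 (exact permutation test, two-sided), the smallest that these groupings can give, and adjusted p = 0.000622. Over the 16 arrays the brightest probe correlated at -0.39 and 0.103 with the other 2. The sources used here do not say which transcripts of Bbc3 each probe reads, so the level of the gene as a whole cannot be told from these probes.

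**Figure D2:**
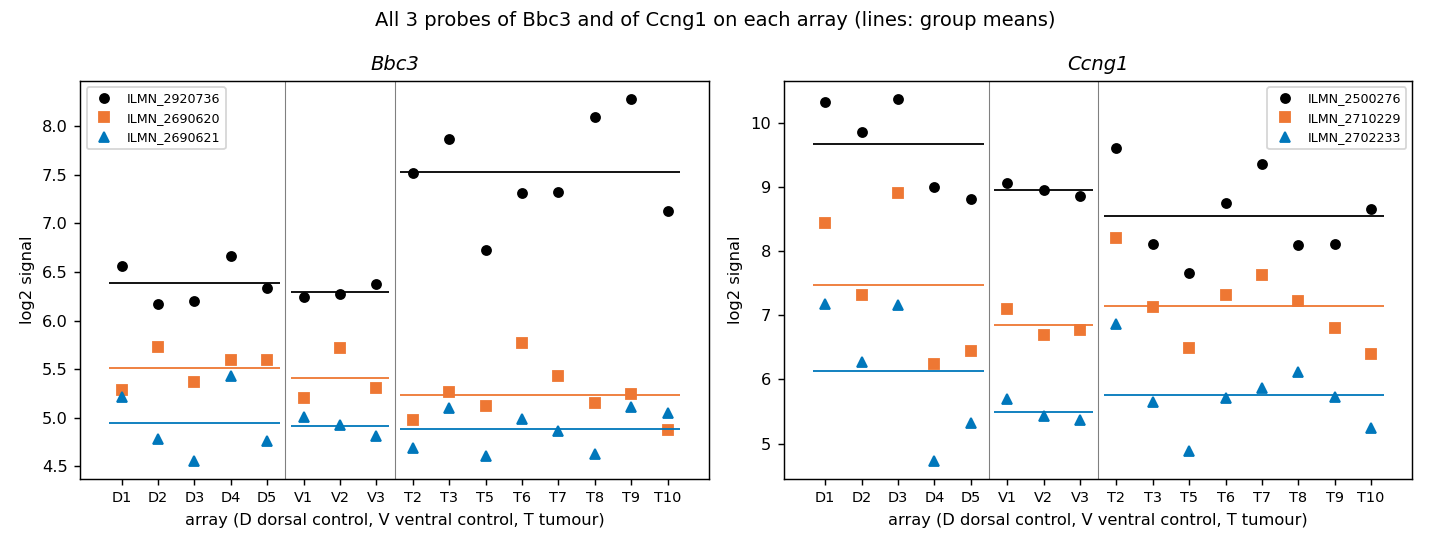
Log2 signal (vertical axis) of all 3 probes of Bbc3 (left) and of Ccng1 (right) on each of the 16 arrays (D dorsal control, V ventral control, T tumour), with group means as lines. For Bbc3 only ILMN_2920736 stands higher in the tumours (mean 7.53 against 6.39 and 6.30), and for Ccng1 all 3 probes are higher in dorsal controls 1 to 3 than in 4 and 5.

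Fas, the death receptor at the cell surface that starts apoptosis when its ligand binds, varied most among the tumours (SD 1.04, n = 8). Its brighter tested probe (ILMN_2902979) read 5.15, 5.16, 4.57, 4.51 and 4.40 in the dorsal controls, the last 3 not detected, and 5.39, 5.54 and 5.68 in the ventral controls. The tumours read 8.21 in tumour 2, 7.32 in tumour 5 and 6.62 in tumour 7, and from 4.88 to 6.33 in the other 5, with a median of 6.21 over all 8. In all, 6 tumours were above every control, tumour 3 lay within the range of the ventral controls and tumour 9, not detected, within that of the dorsal controls. The difference was 1.21 ± 0.37 (2.31-fold, adjusted p = 0.0121). It was 1.60 ± 0.41 against the dorsal controls (adjusted p = 0.00463) and did not pass against the ventral controls (0.82 ± 0.49, adjusted p = 0.208). Within chips it was 0.49 on chip 1, which held tumours 8, 9 and 10, 1.62 on chip 3, and 2.10 against the dorsal controls on chip 2.

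The second tested probe of Fas (ILMN_2479290) was near background, detected on 6 tumours and on 1 of 8 controls. It was higher in tumours by 0.57 ± 0.21 (adjusted p = 0.0352), which is at least 1.40-fold with undetected control groups at the detection limit. This call was lost in 12 of 26 settings, with adjusted p from 0.0156 to 0.0815 over them. Among the 12 were those without tumour 2, without tumour 5, without any ventral control and without dorsal control 2, 4 or 5. Without dorsal controls 4 and 5 together the difference was 0.54 (adjusted p = 0.0815). Against the dorsal controls alone it was 0.60 (adjusted p = 0.049) with them and 0.54 (adjusted p = 0.179) without them. Against the ventral controls alone it was 0.53 ± 0.28 and did not pass (adjusted p = 0.153). The other 2 probes of Fas were detected on no array and were not tested. The mean level of 8 microglia and macrophage markers ran from 7.14 in tumour 9, the tumour with the lowest Fas, to 10.24 in tumour 2, the tumour with the highest. Between them the order was not the same. Tumour 6 had a marker mean of 9.84 and tumour 10 one of 8.18, with the brighter Fas probe at 5.93 and 6.33. The part of those cells in the Fas values was not tested.

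Trp53inp1, a nuclear protein that assists p53 phosphorylation and also takes part in autophagy, rose on both of its probes. The brighter probe (ILMN_2506012) read 6.47, 6.74, 6.55, 6.82 and 6.58 in the dorsal controls and 7.18, 7.51 and 7.22 in the ventral controls. The tumours read from 7.24 to 8.83, with a median of 8.13. Tumours 3 and 6 lay within the range of the ventral controls, and the other 6 were above every control. The difference was 1.15 ± 0.21 (2.21-fold, adjusted p = 0.000286). It was 1.48 ± 0.24 against the dorsal controls (adjusted p = 8.48e-05) and 0.81 ± 0.28 against the ventral controls (adjusted p = 0.0328). The call against the ventral controls was lost without any one of the 3 ventral controls (adjusted p = 0.115, 0.0558 and 0.111) and with the chip as a block (0.0608), in a range of 0.00629 to 0.141 over 26 settings. Within chips the difference from both controls was 1.66 on chip 1 and 0.83 on chip 3, and that from the dorsal controls 1.33 on chip 2.

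The dim probe of Trp53inp1 (ILMN_2971479) was detected on 5 tumours and on no control. It rose by 0.52 ± 0.13 (adjusted p = 0.00387), at least 1.14-fold with the controls at the detection limit, and followed the brighter probe over the 16 arrays (r = 0.916). Against the ventral controls alone the dim probe did not pass (0.40 ± 0.18, adjusted p = 0.088).

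Mdm2, the ligase that closes the feedback loop on p53, showed the smallest rise of the 5 higher genes on its brightest probe. That probe (ILMN_1250774) read 9.86, 10.00, 9.76, 9.76 and 10.31 in the dorsal controls and 10.00, 9.84 and 9.80 in the ventral controls. The tumours read from 10.01 to 10.91, with a median of 10.33. In all, 5 tumours were above every control, and dorsal control 5 lay above tumours 2, 6 and 10. The difference was 0.48 ± 0.13 (1.39-fold, adjusted p = 0.00623). It was 0.45 ± 0.15 against the dorsal controls (adjusted p = 0.0192) and 0.51 ± 0.18 against the ventral controls (adjusted p = 0.0317). The call against the dorsal controls was lost without dorsal control 3 (0.0541) or 4 (0.0538), in a range of 0.00365 to 0.239 over 27 settings, and that against the ventral controls without any one of the 3 ventral controls (adjusted p = 0.0565, 0.103 and 0.118), in a range of 0.00251 to 0.254 over 26 settings. Within chips the difference from both controls was 0.47 on chip 1 and 0.27 on chip 3, and that from the dorsal controls 0.62 on chip 2.

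The second tested probe of Mdm2 (ILMN_2850753) rose by 0.38 ± 0.13 against both controls (adjusted p = 0.0245). Against the dorsal and the ventral controls taken alone it did not pass (adjusted p = 0.0629 and 0.0793). The call against both was lost without ventral control 1 or 3 (adjusted p = 0.0533 and 0.0518), in a range of 0.00392 to 0.138 over 27 settings. The third probe of Mdm2 was detected on no array.

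Zmat3, also known as Wig1, a zinc-finger protein that binds RNA, fell in the tumours and varied least among them of the 7 genes (SD 0.24, n = 8). Its single probe (ILMN_2418426) read 9.11, 9.21, 8.97, 8.89 and 9.26 in the dorsal controls and 8.76, 8.85 and 8.95 in the ventral controls. The tumours read from 7.52 to 8.23, with a median of 7.91. All 8 tumours were below all 8 controls, a separation that 9.03% of all probes showed in this direction, and the highest tumour, number 8, was 8.23 against 8.76 in the lowest control. The difference was -1.11 ± 0.11 (2.16-fold lower, adjusted p = 8.24e-07), with -1.23 ± 0.13 against the dorsal controls (adjusted p = 1.07e-06) and -0.99 ± 0.15 against the ventral controls (adjusted p = 9.78e-05). Within chips it was -0.95 on chip 1, -1.16 on chip 3 and -1.44 against the dorsal controls on chip 2.

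Against the dorsal controls alone 10 of the 15 probes passed, where 46.8% of all probes did, and 5 genes were higher and 2 lower, where 49.9% of all genes passed. Against the ventral controls alone 6 passed, where 36.8% of all probes did, and 4 genes were higher and 1 lower, where 40.2% of all genes passed. The genes whose brightest probe passed against the dorsal but not the ventral controls were Fas and Ccng1, for which the difference between the regions did not pass either (0.78 ± 0.53, adjusted p = 0.509, and -0.71 ± 0.43, adjusted p = 0.435, ventral minus dorsal). Without dorsal controls 4 and 5 the difference of Ccng1 between the regions was -1.22 ± 0.42 (adjusted p = 0.104). Between the normal regions 0 of the 15 probes and 0 of the 7 genes passed, where 8.18% of all probes and 9.24% of all genes did. At an unadjusted p under 0.05 the brighter probe of Trp53inp1 was the single one to differ in this limma fit (0.67 higher in the ventral controls, adjusted p = 0.237), while limma with array weights called 6 probes: both of Cdkn1a, the brighter of Fas and of Trp53inp1, and 2 of Ccng1. The comparisons with the 2 regions share the tumours and are not independent of each other.

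**Figure D3:**
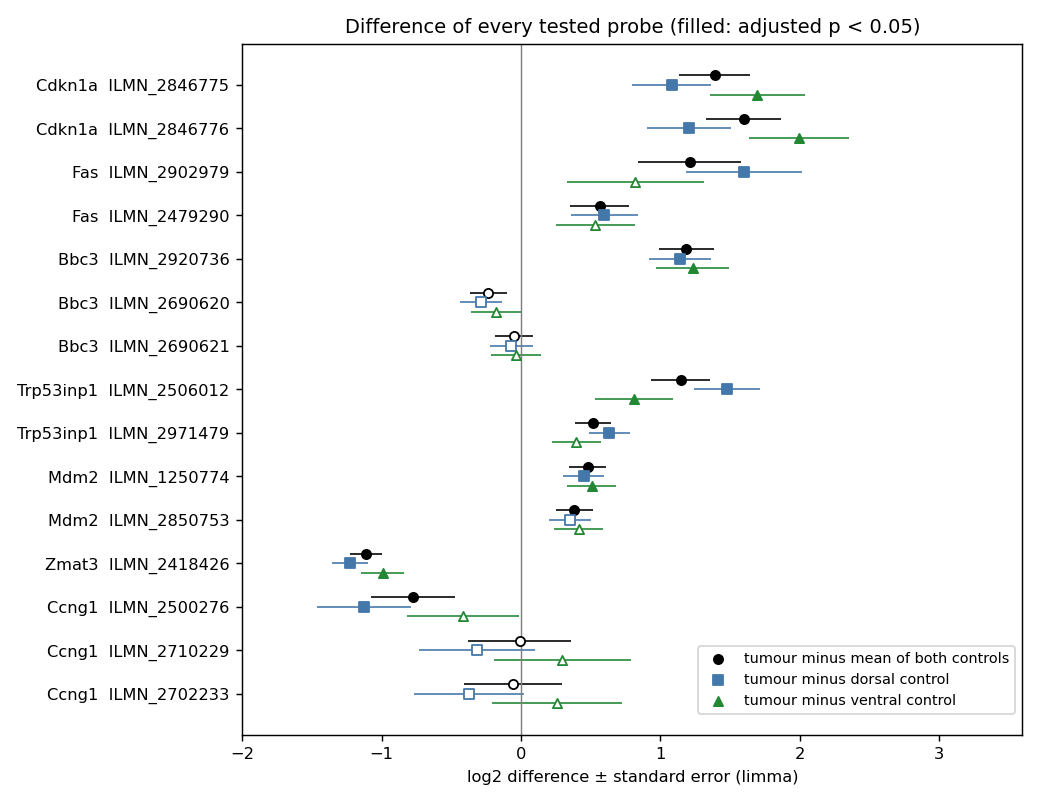
Difference of log2 signal (horizontal axis, with the limma standard error as a bar) of all 15 tested probes for tumours against both controls, the dorsal and the ventral controls, with filled symbols where the adjusted p is under 0.05. Zmat3 and the brightest Ccng1 probe lie to the left of 0, the 9 probes that rose lie to the right, and the other 2 probes of Bbc3 and of Ccng1 have open symbols in all 3 comparisons.

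Taken tumour by tumour on the brightest probe of each gene, each of the 8 had at least 3 of the 7 genes above every control and at least 1 below. On these probes tumours 5 and 8 had all 7 genes beyond the controls, 5 above and 2 below. For Mdm2 the margin was small, with 10.31 in tumour 5 and 10.34 in tumour 8 against 10.31 in dorsal control 5. On Mdm2 probe ILMN_2850753 tumour 8 (9.80) was below dorsal control 4 (9.82). On Bbc3 probe ILMN_2690620 both tumours were below every control (5.12 and 5.16, lowest control 5.20). The share of all genes that a single tumour places beyond every control was not computed. These counts therefore describe the tumours and cannot be read as particular to the p53 targets. Tumour 2 had the largest rise of Cdkn1a (2.11 over the mean of both control groups), of Fas (3.06) and of Trp53inp1 (1.86), but Mdm2 stood only 0.10 above that mean and Ccng1 0.30 above it. Tumour 2 also had the highest mean level of the neuron markers (10.18, next 8.68), of the endothelial markers (8.83, next 7.29), of the microglia and macrophage markers (10.24, next 9.84) and of the T and NK cell markers (6.95, next 6.88), and the part of these cells in its values was not tested. Tumour 3 had the largest rise of Mdm2 (1.00) and the lowest Zmat3 (-1.45), with Fas at 0.35 and Trp53inp1 at 0.27. Tumour 9 had the largest rise of the brightest Bbc3 probe (1.93) and the lowest Fas (-0.27). On Bbc3 probe ILMN_2690620 tumour 6 was the highest (5.77) and tumour 9 read 5.24. Of the 5 genes that rose on their brightest probe, that probe was highest in tumour 2 for Cdkn1a, Fas and Trp53inp1, in tumour 3 for Mdm2 and in tumour 9 for Bbc3.

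**Figure D4:**
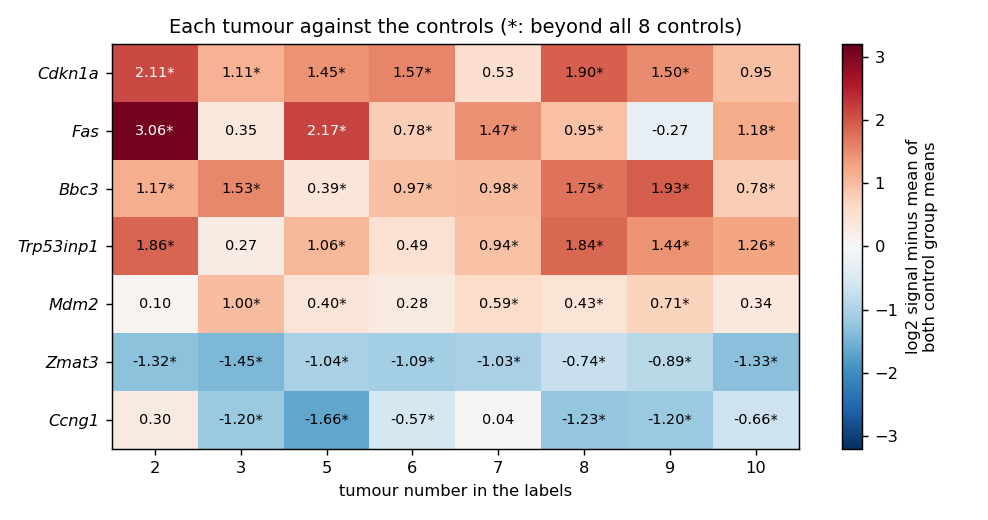
Log2 signal of the brightest probe of each p53 target (rows) in each tumour (columns, by label number) minus the mean of the dorsal and ventral group means, printed in the cells and shown in colour (red above, blue below), with a star where the tumour lies beyond all 8 controls. Zmat3 is starred in every tumour, and the strongest cell is Fas in tumour 2 at 3.06.

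Pairs of genes were compared on the brightest probe of each. Among the 8 tumours, none of the 21 pairs of genes varied together past the threshold after adjustment, and 0 passed at an unadjusted p under 0.05 with either Pearson's or Spearman's coefficient (exact permutation test, two-sided). The strongest pair was Fas with Mdm2, with r = -0.71 (exact permutation p = 0.0524, adjusted p = 0.667) and rho = -0.62 (exact permutation p = 0.115, adjusted p = 0.743). Without the 2 tumours farthest from the median of Fas, r was -0.47. Fas with Bbc3 gave r = -0.61 (exact permutation p = 0.109, adjusted p = 0.667), and Cdkn1a with Trp53inp1 gave r = 0.56 (exact permutation p = 0.152, adjusted p = 0.667). Of the 21 coefficients 11 were positive. With 8 tumours only strong relations could pass.

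Other known p53 targets passed at about the rate of all genes. Of 38 listed, 35 were on the platform and 26 were tested, of which 10 were higher and 5 lower in tumours than in both controls and 11 did not pass, where 53.8% of all genes passed. Their median difference was 0.32, against 0.01 over all genes, and this list too was chosen with earlier results of these data known. The largest rise was that of Traf4, an adaptor of the TNF receptor family, at 4.72 ± 0.29 (26.4-fold, adjusted p = 3.56e-09), from a mean of 5.92 in dorsal and 6.72 in ventral controls to 11.04 in tumours. Rps27l, a paralogue of a ribosomal protein gene, rose by 2.03 ± 0.12 (adjusted p = 2.05e-09), and both genes were above every control in all 8 tumours, as were 9.74% of all probes. Gadd45a, a stress protein that slows the cell cycle, rose by 1.18 ± 0.30 (adjusted p = 0.00385), and Rprm, a cell cycle inhibitor, by 1.12 ± 0.34 (adjusted p = 0.0124), each with 4 of 8 tumours above every control. Against the ventral controls alone these last 2 did not pass (adjusted p = 0.0682 and 0.155).

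The largest fall was that of Fbxw7, the substrate receptor of a ubiquitin ligase, at -1.74 ± 0.21 (adjusted p = 5.6e-06). Rrm2b, the p53-inducible subunit of ribonucleotide reductase, fell as well, with a difference of -0.91 ± 0.14 (adjusted p = 6.55e-05). For both genes all 8 tumours were below every control, as they were for 9.03% of all probes. Polk, a DNA polymerase that passes over lesions, differed by -0.59 ± 0.18 (adjusted p = 0.0131) and Ddb2, which recognises ultraviolet damage in DNA, by -0.59 ± 0.20 (adjusted p = 0.0202), each with 5 tumours below every control. Of these 4, Polk did not pass against the dorsal controls alone (adjusted p = 0.175), and Ddb2 did not pass against the ventral controls alone (adjusted p = 0.189). In the promoter windows of the other targets, 4 of 31 genes (12.9%) held a match to the element with up to 3 mismatches. Among all 27025 genes with a window, 1.63% held such a match and 0.0814% held one with at most 1 mismatch. The 4 were Aen, Rps27l, Sesn1 and Tigar, and Rps27l, with 1 mismatch, was the one with the closest match. Sesn1 did not pass against both controls (-0.13 ± 0.25, adjusted p = 0.695, limma), and Aen and Tigar were not among the targets tested for a difference.

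**Figure D5:**
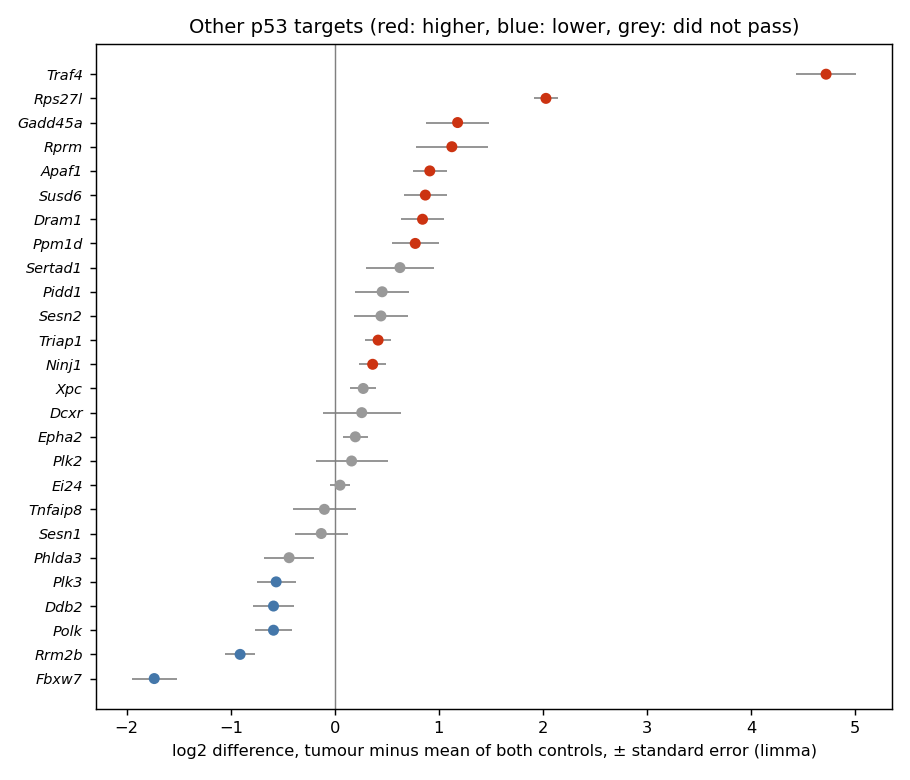
Difference of log2 signal between tumours and the mean of both controls (horizontal axis, with the limma standard error as a bar) for the 26 other p53 targets tested, in order of size, red where higher, blue where lower and grey where the gene did not pass. Traf4 stands apart at 4.72, and 11 genes did not pass.

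Among the relatives and regulators of p53, 16 of 20 listed genes were tested, of which 4 were higher, 3 lower and 9 did not pass, a smaller share than the 53.8% of all genes that passed. Cdkn2a, whose locus encodes the ARF protein that holds Mdm2 back as well as the kinase inhibitor INK4A, was detected on no control and rose in all 8 tumours, to a mean of 8.72. The rise was at least 14.2-fold (adjusted p = 7.27e-10). The kinase Atm, which signals DNA breaks to p53, rose by 0.67 ± 0.13 (adjusted p = 0.000336). The kinase Hipk2 rose by 0.59 ± 0.17 (adjusted p = 0.0102), and the checkpoint kinase Chek2, not detected on any dorsal control, was at least 1.29-fold higher (adjusted p = 0.0416). Neither of these 2 passed against the ventral controls alone (adjusted p = 0.165 and 0.926). Lower were Ppp1r13b, which encodes the p53-binding protein ASPP1 (-2.04 ± 0.35, adjusted p = 0.000158), Trp53bp1, which encodes a protein recruited to DNA breaks (-1.05 ± 0.15, adjusted p = 2.57e-05), and the acetyltransferase Kat5 (-0.79 ± 0.10, adjusted p = 5.97e-06). Mdm4, the partner of Mdm2, differed by 0.24 ± 0.12 and did not pass (adjusted p = 0.109).

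Of the tumour suppressors on the list, 2 were measured. Nf1, a brake on RAS, was lower in tumours by -0.62 ± 0.14 (adjusted p = 0.00147), with 3 of 8 tumours below every control. Against the dorsal controls alone Nf1 did not pass (-0.39 ± 0.16, adjusted p = 0.0517). Rb1, the retinoblastoma protein, was higher by 0.92 ± 0.21 (adjusted p = 0.00147), with 7 of 8 above every control. The labels do not name the deleted genes, so these values check no genotype.

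Levels of many marker genes differed between the groups along with these genes. In bulk tissue fewer cells of a type and less RNA per cell cannot be told apart. The counts of markers are read beside the 53.8% of all genes that passed against both controls. All 8 tested neuron markers were lower in tumours, with a mean level from 6.45 to 10.18 in tumours, 11.07 to 12.43 in dorsal and 10.75 to 11.11 in ventral controls and the largest difference in Vsnl1 (-4.48). All 4 tested cell division markers were higher, led by Top2a at at least 18.2-fold, with means from 7.24 to 8.88 in tumours and 4.54 to 4.97 in controls. Of 8 oligodendrocyte progenitor markers 7 were higher (Lhfpl3 by 3.37, means from 8.28 to 11.34 in tumours and 7.40 to 8.27 in controls). Of 8 microglia and macrophage markers 6 were higher (Lyz2 by 4.83, means from 7.14 to 10.24 in tumours and 6.83 to 7.45 in controls). Of 7 oligodendrocyte markers 5 were lower (Mobp at -3.68, means from 6.62 to 11.65 in tumours and 9.69 to 11.62 in controls), and of 8 astrocyte markers 5 were lower and 1 higher (Ntsr2 at -3.04, means from 7.88 to 11.08 in tumours and 9.97 to 10.82 in controls). Of 8 endothelial markers 1 was higher (Vwf by 1.37) and 1 lower, a smaller share than over all genes. Their means ran from 6.67 to 8.83 in tumours and 6.98 to 7.53 in controls. Of 2 tested T and NK cell markers 1 was higher, Ccl5 at at least 5.68-fold, with means from 4.98 to 6.95 in tumours and 4.51 to 4.91 in controls. The part of these cell types in the levels of the p53 targets was not tested.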

How the data were processed

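Total RNA of 16 mouse brain samples was hybridised to Illumina bead arrays. Per the file headers, the authors deposited mean bead intensity for 45281 probes without normalization or background subtraction, together with the scanner's detection p-values. A second deposited table holds log2 values of 38563 probes, made by the authors with steps not given in the sources used here. They differed from the log2 values computed here by at most 0.0603. The intensities were processed with neqc of limma 3.58.1 in R 4.3.3 (background from the detection p-values, offset of 16, quantile normalization, log2). Median intensity was 125.7 to 141.7. Probes with a detection p under 0.05 on at least 3 arrays were kept (23131), and 1 limma fit with 3 group means gave all contrasts, adjusted by Benjamini-Hochberg over these probes. The platform table named 32093 probes with 1 gene, 16 with several and 13172 with none. A probe undetected throughout a group was set to the lowest detected signal of each array for folds given as "at least". The procedure was tested on simulated data.

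All probes of the 7 genes are reported. Of the other p53 targets the 4 largest rises and falls that passed are named, of p53 relatives those that passed (Mdm4 was named after its value was seen), of tumour suppressors all measured, and of each marker list the gene with the largest change. The genes and lists were chosen with earlier results of these data known. The striatal list, the fits without dorsal controls 4 and 5, the tests between probes of a gene and the mismatch limit were chosen after seeing the data. Alternatives covered background, scaling, the authors' values, filters, probes, array weights, the variance prior, weighting of the regions, chip, replicate number and each array left out. Samples were not paired by replicate number in the main fit. Deviations of same-numbered samples correlated from -0.07 to 0.139 over 8 pairs, 3 of them over 0.1. Pairs of unlike number were not computed, so these values cannot exclude a pairing.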

Additional observations from a re-analysis of the deposited data

Results flagged for a closer look

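In 1 of 30 groups tested (15 probes in the dorsal controls and in the tumours), a single array stood away from the rest of its group. On the dim Fas probe ILMN_2479290, dorsal control 3 read 4.965 against 4.631 in the next highest dorsal control, a gap of 0.746 of the group's range. Chance alone sets apart about 1 in 20 groups. It was the only control on which this probe was detected.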

How the results depend on the processing

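For the p53 targets against both controls, Cdkn1a, the brightest probes of Fas, Bbc3 and Trp53inp1, and Zmat3 stayed past the threshold in the same direction under every alternative run. With 1 probe a gene, 7 members and 6348 genes passed against both controls, and 5890, 4784 and 1111 genes passed against the dorsal controls, against the ventral controls and between the regions, since fewer features are tested. With the chip as a block, 1242 probes differed between the regions (1891 without it). Array weights gave 6 member probes there (0 without weights) and 6647 of all probes. The cause was not tested. The replicate block left 6 member probes past the threshold against both controls (11 without it), and the calls of both Mdm2 probes (adjusted p = 0.183 and 0.138), Ccng1 (0.17), the dim Fas probe (0.0548) and the dim Trp53inp1 probe (0.0818) were lost. Leaving out 1 array at a time gave 8 to 12 member probes and 10445 to 11762 of all probes against both controls, 8 to 10 and 9755 to 10982 against the dorsal controls, 4 to 7 and 6236 to 8849 against the ventral controls, and 0 and 964 to 2055 between the regions, and 0 pairs of members. Median scaling moved the median of all probes to 0.142 against both controls, 0.187 against the dorsal and 0.119 against the ventral controls, and the share of passing probes that were higher from 50.8% to 62.2%, from 51.3% to 65.3% and from 48.6% to 57.8%. Under it the calls of Ccng1 against both (adjusted p = 0.161) and against the dorsal controls (0.0592) were lost. No result reversed. The dim probes of Fas, Trp53inp1 and Bbc3 lie near background, which limits what their values can show.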

Other observations

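Each p53 target was taken by its brightest probe. The 2 genes whose levels followed that probe most closely over the 16 arrays were looked up among 7609 genes detected on every array. These coefficients describe arrays that share the difference between tumour and normal brain. Cdkn1a was followed by Ldha (r = 0.898) and Mapkapk2 (0.877), and Fas by Pnpla7 (0.931) and Pon2 (0.916). The brightest probe of Bbc3 was followed by Slc35b3 (0.957) and Snhg5 (0.954), and Trp53inp1 by Lrig3 (0.951) and Lbr (0.934). Mdm2 was followed by Siah1b (0.911) and Fam53a (0.904), Zmat3 by Zc3h12b (0.969) and Epb41l3 (0.959), and Ccng1 by Tbc1d2 (0.905) and Cux2 (0.894). Within the 8 tumours alone the coefficient was 0.963 for Fas with Pnpla7 and 0.657 for Cdkn1a with Ldha.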
